A study of Homo sapiens with 12 samples.

Results

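A set of 9 genes of MHC class I antigen presentation was followed across 4 treatments of the MDA-MB-468 breast cancer cell line. They were taken by gene symbol from the deposited counts, 9 of 23228 genes listed, and all 9 passed the filter on low counts that left 14571 genes for testing. They are the heavy chains HLA-B, HLA-C, HLA-E and HLA-F, the light chain B2M, the transporter subunits TAP1 and TAP2, the loading factor TAPBP and the regulator NLRC5. Poly(A) RNA was sequenced from 12 libraries, 3 per group, lettered A, B and C. The combination group received tazemetostat at 5 µM from day -5 and ipatasertib at 5 µM from day 0. The tazemetostat group had 5 µM tazemetostat alone over the same days, the ipatasertib group had DMSO and then 5 µM ipatasertib from day 0, and the DMSO group had the vehicle. Every group was collected after 24 hours in medium with 2% serum. Tazemetostat inhibits EZH2, and ipatasertib inhibits AKT. All libraries come from 1 cell line. Nothing in the labels says whether the lettered libraries were grown as separate cultures, so a p-value here speaks only of the spread among libraries, and that spread may be technical.

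Class I molecules show fragments of a cell's own proteins to CD8 T cells. Proteasomes cut the proteins, the TAP1 and TAP2 pair carries the peptides into the endoplasmic reticulum, and tapasin, the product of TAPBP, holds the empty heavy chain and B2M beside the transporter until a peptide binds. HLA-B and HLA-C are classical, highly variable heavy chains, whereas HLA-E and HLA-F vary little, and HLA-E is a ligand of receptors on natural killer cells. NLRC5 is an activator of class I genes that works through RFX5 and its partners and NF-Y at their promoters, and interferon acts on the same genes through STAT and IRF factors. EZH2 is the enzyme of Polycomb repressive complex 2, which places the repressive mark H3K27me3. No mark and no protein was measured here.

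Promoter sequence was read from RefSeq (GRCh38.p14), which held a window for 7 of the 9 genes; HLA-E and NLRC5 had none in the table used. The bases before the start site are shown for 2 heavy chains, the light chain and a transporter subunit, the genes on which most of the results below turn. Each is written 5′ to 3′ on the gene's own strand, and capitals mark matches on either strand to an interferon-stimulated response element (ISRE, GAAANNGAAA), an NF-Y box (CCAAT) or a kB site (GGGNNTTCCC). HLA-B lies at chr6:31357180-31357429 on the minus strand, HLA-C at chr6:31272093-31272342 on the minus strand, B2M at chr15:44711267-44711516 on the plus strand and TAP1 at chr6:32853705-32853954 on the minus strand.
HLA-B: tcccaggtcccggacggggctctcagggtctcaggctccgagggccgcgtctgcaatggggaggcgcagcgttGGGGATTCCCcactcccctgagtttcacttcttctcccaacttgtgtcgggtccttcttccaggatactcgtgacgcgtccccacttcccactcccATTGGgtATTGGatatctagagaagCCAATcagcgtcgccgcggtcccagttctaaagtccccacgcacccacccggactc
HLA-C: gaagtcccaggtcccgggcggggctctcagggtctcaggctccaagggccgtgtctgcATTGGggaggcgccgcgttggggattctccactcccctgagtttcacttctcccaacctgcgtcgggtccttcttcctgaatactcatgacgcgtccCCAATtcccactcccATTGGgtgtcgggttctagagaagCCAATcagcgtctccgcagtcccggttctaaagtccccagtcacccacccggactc
B2M: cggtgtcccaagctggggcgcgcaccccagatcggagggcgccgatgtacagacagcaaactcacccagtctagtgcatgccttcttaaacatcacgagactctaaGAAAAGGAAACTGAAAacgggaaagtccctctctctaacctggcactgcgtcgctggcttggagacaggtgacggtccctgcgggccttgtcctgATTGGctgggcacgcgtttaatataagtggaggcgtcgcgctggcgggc
TAP1: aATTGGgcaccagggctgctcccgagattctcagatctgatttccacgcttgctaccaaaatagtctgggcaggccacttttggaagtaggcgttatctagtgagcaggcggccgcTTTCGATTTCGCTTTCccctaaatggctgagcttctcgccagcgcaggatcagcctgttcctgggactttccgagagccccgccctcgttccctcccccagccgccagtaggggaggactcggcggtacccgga

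The search covered the whole window, 250 bases before and 50 after the start site, and 2 further motifs, a GAS element (TTCNNNGAA) and the core of a cyclic AMP response element (CRE core, TGACG). An ISRE match was in the windows of HLA-F, B2M, TAP1, TAP2 and TAPBP, 5 of 7, against 3.57% of 35116 windows in the table. B2M, TAP1 and TAPBP each held 2 ISRE matches that overlap, and no other matches overlapped. An NF-Y box was in 5 of 7 windows, those of HLA-B, HLA-C, HLA-F, B2M and TAP1, against 34.6% of all windows. A CRE core was in 4 of 7, those of HLA-B, HLA-C, B2M and TAP2, against 24.6%. A kB match was in the HLA-B window alone among the 7, against 2.17% of all windows, and no GAS match was in any of the 7, against 7.66%. The aligned HLA-B and HLA-C windows were identical at 269 of 304 positions, or 88.5%. The HLA-C window differs from the HLA-B kB match by C9T, counted from 1 at the 5′ end of the match, and the HLA-F window by G2A and G4A. These are matches of letters in the reference, not measured binding sites, and the alleles of MDA-MB-468 may differ from them. Only exact matches were counted, so a window without a match may still hold a site that departs from the pattern.

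**Figure D1:**
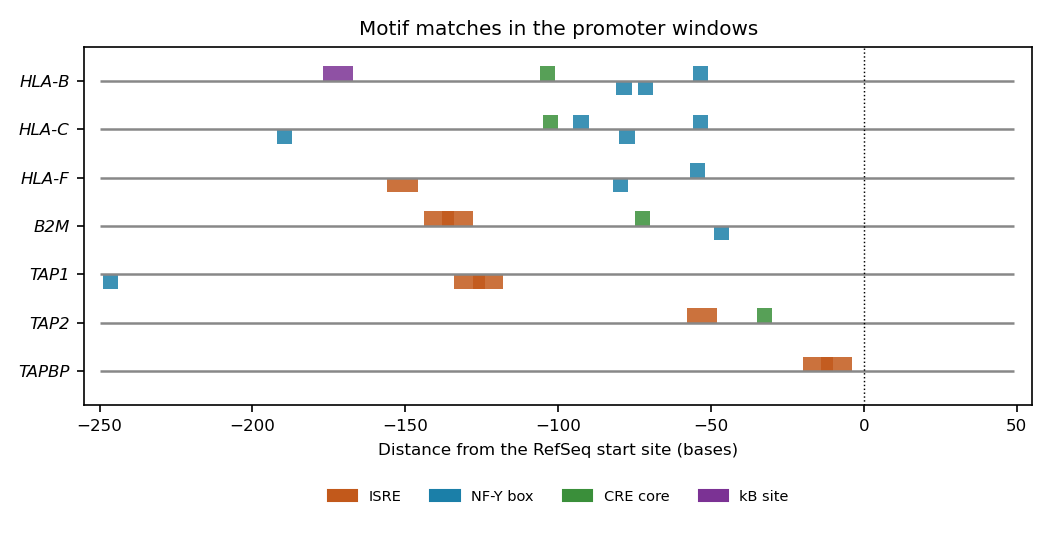
Motif matches in the RefSeq windows of 7 class I genes, by distance from the start site in bases (0 is the first transcribed base). Boxes above a line are on the gene's strand and boxes below it on the opposite strand. ISRE matches appear in 5 windows and the kB match in that of HLA-B.

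Libraries held 12981622 to 17948209 counts in genes with the combination, 19023947 to 26070000 with tazemetostat, 18926477 to 25468348 with ipatasertib and 22682755 to 28746965 with DMSO. Levels are in CPM, the reads of a gene relative to the TMM-scaled total of its library, and at these depths even NLRC5, the lowest of the 9, had 177 to 415 counts in a library. Reads outside annotated genes took 25.2% ± 0.952 of the total with the combination, 21.1% ± 1.64 with tazemetostat, 23.3% ± 1.004 with ipatasertib and 19.9% ± 1.43 with DMSO (SD, n = 3 each). In each group the A library was the farthest from the others: the counts of B and C differed by a chi-square of 2.35 to 3.47 per degree of freedom, and pairs with A by 4.18 to 14.7. For this reason results are also given without the A libraries where that changes a call. All 8 epithelial markers looked for were read in every group, with summed levels of 4526 to 5141 CPM with the combination, 6818 to 6975 CPM with tazemetostat, 5791 to 6402 CPM with ipatasertib and 7767 to 8419 CPM with DMSO. The 9 leukocyte markers summed to 58.5 to 68.2 CPM with the combination, 53.0 to 60.9 CPM with tazemetostat, 75.1 to 96.9 CPM with ipatasertib and 77.2 to 82.9 CPM with DMSO. CD14 made up most of it, and CD2 and CD3D were at 0 in every group. PTPRC, at few counts, was higher with the combination, at 0.601 ± 0.0992 CPM. It was at 0.0540 ± 0.0640 CPM with tazemetostat, 0.0975 ± 0.108 CPM with ipatasertib and 0.0478 ± 0.0540 CPM with DMSO. The 7 fibroblast markers summed to 9.48 to 11.5 CPM with the combination, 15.7 to 19.3 CPM with tazemetostat, 5.23 to 5.53 CPM with ipatasertib and 9.72 to 11.7 CPM with DMSO, most of it COL1A1. LUM was read at 1.84 ± 0.641 CPM with the combination and 2.30 ± 0.0144 CPM with tazemetostat and was at 0 in every ipatasertib and DMSO library, and THY1 was at 0 in all but 1 library. The 5 endothelial markers summed to 3.90 to 5.15 CPM with the combination, 1.16 to 1.57 CPM with tazemetostat, 1.55 to 2.18 CPM with ipatasertib and 0.636 to 1.10 CPM with DMSO. Of these, CDH5 was at 3.82 ± 0.722 CPM with the combination, 0.472 ± 0.122 CPM with tazemetostat, 0.924 ± 0.144 CPM with ipatasertib and 0.150 ± 0.0857 CPM with DMSO (SD, n = 3 each). The part of these shifts in the results below was not tested, and in bulk RNA a change in the number of cells of a kind and a change in RNA per cell cannot be told apart.

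HLA genes are near copies of each other, which limits how surely a read is given to 1 of them. In the GENCODE v29 transcripts, 2.54% of 50-base stretches of HLA-B also occur in another gene, as do 6.79% for HLA-C, 5.13% for HLA-E and 1.70% for HLA-F. At 100 bases the shares were 0% for HLA-B and HLA-F, 0.278% for HLA-C and 0.6% for HLA-E. B2M, TAPBP and NLRC5 shared no 50-base stretch with another gene. TAP2 shared 80.2%, nearly all of it with 1 overlapping gene model on the same strand, and 1.27% outside that model. Reads that aligned to several places took 11.3% of the total with the combination, 10.9% with tazemetostat, 11.8% with ipatasertib and 12.04% with DMSO. No source used here gives the strand setting or annotation behind the deposited counts, so the levels of the HLA genes and of TAP2 are uncertain to that extent.

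Tazemetostat raised 8 of the 9 genes, where 25.9% of all tested genes were called higher. HLA-B rose by the most, and TAPBP did not pass the test. Ipatasertib alone raised HLA-E and HLA-F and lowered TAP2. With both drugs the heavy chains, B2M and NLRC5 were above DMSO, whereas TAP2 and TAPBP were below it and TAP1 did not pass the test. TAP1, TAP2 and TAPBP were lower with the combination than with tazemetostat, whereas HLA-E and B2M were higher. Differences are log2 fold changes with their standard errors (SE) from edgeR's quasi-likelihood test, adjusted over all 14571 genes by the Benjamini-Hochberg method, and a gene is called changed where the adjusted p is under 0.05. The 3 comparisons with DMSO share the same DMSO libraries and are not independent of each other.

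Many genes changed in every comparison, so the counts among the 9 are read against the shares of all tested genes. The 9 genes, and the lists further below, were chosen with earlier results of these data known, so these contrasts are descriptive. With tazemetostat 8 of 9 were higher than DMSO, beside 25.9% of all tested genes higher and 21.3% lower. The median log2 change of the 9 was 0.71, against 0.01 over all tested genes. With ipatasertib 2 of 9 were higher and 1 lower, where 24.0% and 23.1% of all genes were called higher and lower, so these counts were near the background, and the median was -0.04 against 0.0039 over all genes. With the combination 6 of 9 were higher than DMSO and 2 lower, where 34.4% of all genes were called higher and 30.0% lower, and the medians were 0.76 for the 9 and 0.03 for all genes.

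**Figure D2:**
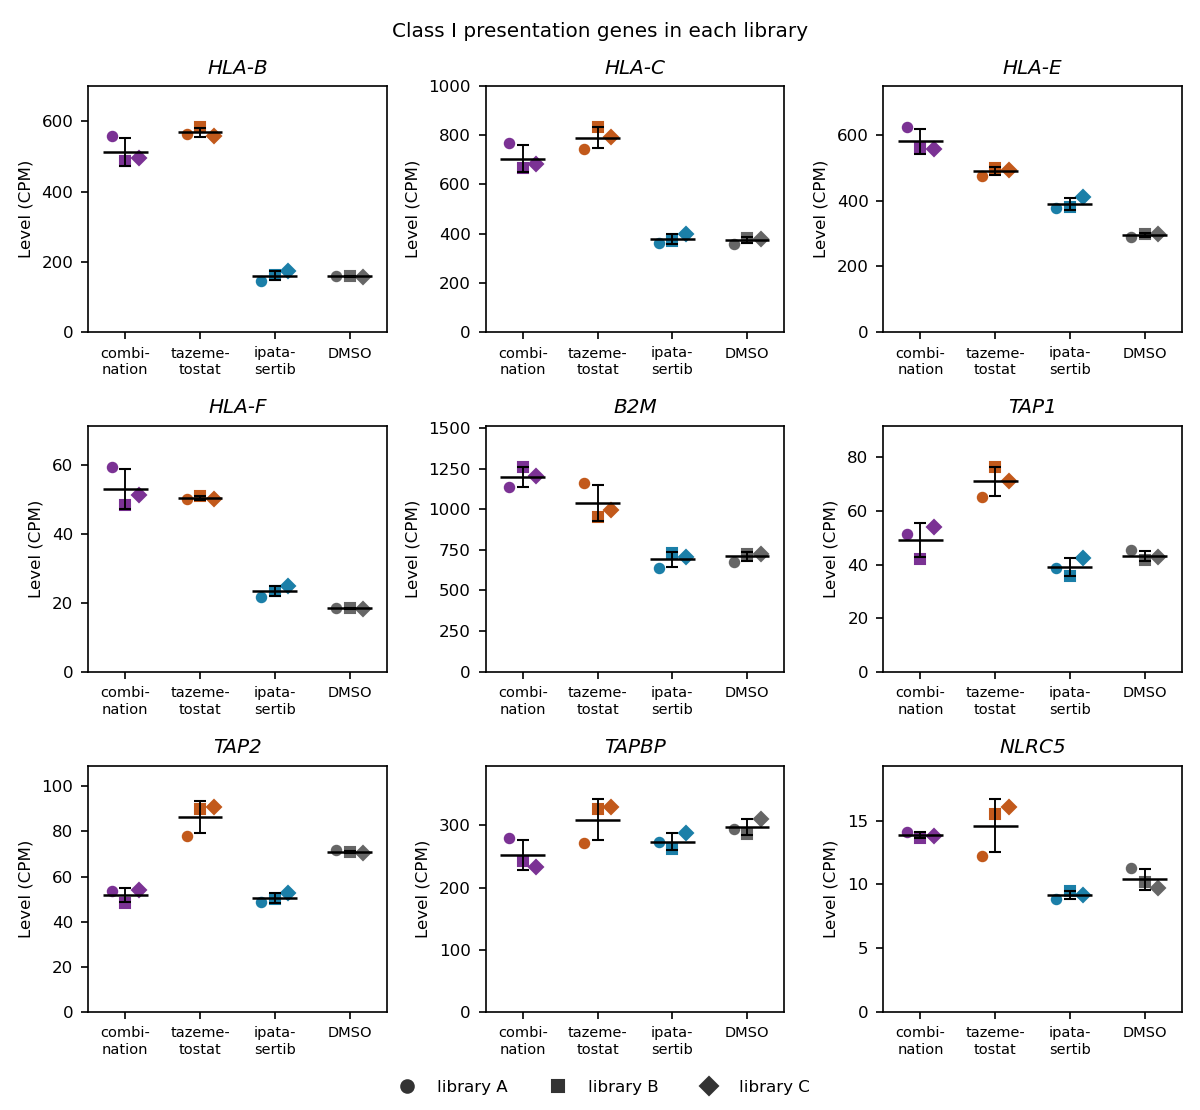
Level of each class I gene in each library, in CPM, on axes that start at 0, with a panel per gene and a marker per library letter. Lines are group means and bars the SD (n = 3). The tazemetostat and combination libraries sit above the DMSO libraries for HLA-B, HLA-C, HLA-E, HLA-F, B2M and NLRC5, and for TAP2 the combination and ipatasertib libraries sit below them.

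HLA-B, a classical heavy chain that presents peptides to CD8 T cells, had 557, 486 and 495 CPM in combination libraries A, B and C, 564, 584 and 559 CPM with tazemetostat, 146, 162 and 173 CPM with ipatasertib, and 159.8, 159.5 and 157 CPM with DMSO. Every library with tazemetostat in it was at least 486 CPM and no library without it passed 173 CPM. HLA-B rose 3.59-fold with tazemetostat, a log2 change of 1.84 (SE 0.071, edgeR adjusted p = 4.99e-15). It was also 3.23-fold higher with the combination than with DMSO (log2 1.69, SE 0.071, edgeR adjusted p = 7.5e-15). Only 4.76% of all tested genes had a larger log2 change than HLA-B with tazemetostat. With ipatasertib alone the log2 difference was 0.02 (95% interval -0.13 to 0.16, edgeR adjusted p = 0.874), and its sign turned when ipatasertib library B or C was left out. The 3 combination libraries lay below the 3 tazemetostat libraries, with a log2 difference of -0.15 (edgeR adjusted p = 0.0792) that passed the threshold without combination library A (-0.22, edgeR adjusted p = 0.0126).

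HLA-C, the other classical heavy chain and the main class I ligand of killer-cell immunoglobulin-like receptors, had 767, 666 and 683 CPM with the combination, 746, 834 and 793 CPM with tazemetostat, 363, 371 and 400.4 CPM with ipatasertib, and 358, 381 and 378 CPM with DMSO. The libraries again fell into a high set with tazemetostat and a low set without it. HLA-C rose 2.12-fold with tazemetostat (log2 1.09, SE 0.069, edgeR adjusted p = 2.23e-11) and was 1.89-fold above DMSO with the combination (log2 0.92, SE 0.069, edgeR adjusted p = 1.26e-10). Its log2 difference with ipatasertib alone was 0.02 (95% interval -0.12 to 0.16, edgeR adjusted p = 0.831), and the sign turned without DMSO library A or ipatasertib library C. Combination and tazemetostat libraries overlapped, at a log2 difference of -0.17 (edgeR adjusted p = 0.0517). That difference passed the threshold without tazemetostat library A (-0.21, edgeR adjusted p = 0.0141) and without combination library A (-0.23, edgeR adjusted p = 0.00711).

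HLA-E, the heavy chain that displays leader peptides of other class I molecules to natural killer cells, had 625, 561 and 557 CPM with the combination, 476, 499 and 494 CPM with tazemetostat, 378, 382 and 411 CPM with ipatasertib, and 289, 299 and 299 CPM with DMSO. These 4 sets of libraries did not overlap, in the order combination, tazemetostat, ipatasertib, DMSO. HLA-E rose with tazemetostat (log2 0.73, SE 0.064, edgeR adjusted p = 4.05e-09) and with ipatasertib (log2 0.40, SE 0.064, edgeR adjusted p = 2.33e-05). Among the 4 heavy chains it was the one called higher with the combination than with tazemetostat, by 0.25 on the log2 scale (SE 0.063, edgeR adjusted p = 0.00291), and against DMSO the combination gave 1.96-fold.

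HLA-F, a heavy chain of low abundance that can reach the surface as an open form, had 59.5, 48.5 and 51.2 CPM with the combination, 50.2, 51.1 and 50.2 CPM with tazemetostat, 21.8, 23.5 and 24.9 CPM with ipatasertib, and 18.6, 18.5 and 18.3 CPM with DMSO. The combination and tazemetostat libraries overlapped, and both sets were above every ipatasertib and DMSO library. HLA-F rose 2.73-fold with tazemetostat (log2 1.45, SE 0.082, edgeR adjusted p = 3.52e-12), 1.27-fold with ipatasertib (log2 0.34, SE 0.085, edgeR adjusted p = 0.00226) and 2.88-fold with the combination (log2 1.52, SE 0.084, edgeR adjusted p = 6.89e-13). Between the combination and tazemetostat the log2 difference was 0.07 (95% interval -0.09 to 0.24, edgeR adjusted p = 0.461), and it changed sign without combination library A (-0.019).

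B2M, the light chain that pairs with the class I heavy chains, had 1136, 1260.0 and 1203 CPM with the combination, 1163, 955 and 995 CPM with tazemetostat, 638, 729 and 706 CPM with ipatasertib, and 678, 727 and 722 CPM with DMSO. Both groups with tazemetostat were above both groups without it, and the combination and tazemetostat libraries overlapped through tazemetostat library A. B2M rose 1.46-fold with tazemetostat (log2 0.55, SE 0.074, edgeR adjusted p = 3.02e-06) and 1.69-fold with the combination (log2 0.76, SE 0.075, edgeR adjusted p = 1.11e-08). With ipatasertib alone the log2 difference was -0.04 (95% interval -0.19 to 0.12, edgeR adjusted p = 0.709). The combination was called above tazemetostat by 0.21 on the log2 scale (SE 0.074, edgeR adjusted p = 0.025). This call was lost without tazemetostat library B (adjusted p = 0.157) or C (0.116), and without combination library B (0.113) or C (0.0605), and with libraries B and C of every group the difference was 0.34 (edgeR adjusted p = 2.15e-07).

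TAP1, 1 of the 2 subunits of the peptide transporter, had 51.5, 41.9 and 54.1 CPM with the combination, 65.4, 76.5 and 71.3 CPM with tazemetostat, 38.7, 35.9 and 42.7 CPM with ipatasertib, and 45.4, 41.6 and 43.0 CPM with DMSO. The tazemetostat libraries were above all others, and the combination libraries overlapped those of ipatasertib and of DMSO. TAP1 rose 1.64-fold with tazemetostat (log2 0.71, SE 0.088, edgeR adjusted p = 8.81e-07). Against tazemetostat the combination was lower, with a log2 change of -0.53 (SE 0.090, edgeR adjusted p = 5.51e-05). The combination was above ipatasertib (log2 0.33, SE 0.092, edgeR adjusted p = 0.00575), but its log2 difference of 0.18 from DMSO did not pass the test (edgeR adjusted p = 0.0817). That difference was called without combination library B (0.26, edgeR adjusted p = 0.0156).

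TAP2, the other subunit, had 53.4, 48.4 and 54.1 CPM with the combination, 78.2, 89.9 and 90.9 CPM with tazemetostat, 48.8, 49.9 and 52.9 CPM with ipatasertib, and 71.6, 70.7 and 70.4 CPM with DMSO. All combination and ipatasertib libraries were below all DMSO libraries, and all tazemetostat libraries above them. TAP2 fell with ipatasertib (log2 -0.49, SE 0.073, edgeR adjusted p = 1.14e-05) and with the combination against DMSO (log2 -0.45, SE 0.074, edgeR adjusted p = 1.83e-05), whereas it rose with tazemetostat (log2 0.29, SE 0.071, edgeR adjusted p = 0.00234). The combination was lower than tazemetostat, with a log2 change of -0.73 (SE 0.074, edgeR adjusted p = 4.92e-08), with 95.4% of tested genes higher than TAP2 in that comparison. The log2 difference between the combination and ipatasertib was 0.04 (95% interval -0.12 to 0.20, edgeR adjusted p = 0.687).

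TAPBP, which encodes tapasin, had 279.9, 243 and 233 CPM with the combination, 272, 327 and 330.1 CPM with tazemetostat, 273, 261 and 288 CPM with ipatasertib, and 294, 286 and 311 CPM with DMSO. The combination libraries were below every DMSO library, and tazemetostat library A was below all 3 DMSO libraries while B and C were above them. With tazemetostat the log2 difference was 0.06 (95% interval -0.10 to 0.22, edgeR adjusted p = 0.561), and it changed sign without tazemetostat library C (-0.0098). With libraries B and C of every group it was called (0.14, edgeR adjusted p = 0.031). The combination was lower than DMSO (log2 -0.24, SE 0.080, edgeR adjusted p = 0.0131) and lower than tazemetostat (log2 -0.30, SE 0.080, edgeR adjusted p = 0.00427). Combination and tazemetostat libraries overlapped, with combination library A above tazemetostat library A. The combination's call against DMSO was lost without DMSO library C (adjusted p = 0.0516) and without combination library C (0.077). Against ipatasertib the combination's log2 difference of -0.12 (edgeR adjusted p = 0.233) was called without combination library A (-0.20, edgeR adjusted p = 0.0373) and with libraries B and C of every group (-0.21, edgeR adjusted p = 0.00207). Against tazemetostat it was -0.47 with libraries B and C.

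NLRC5, the class I activator, had 14.1, 13.7 and 13.8 CPM with the combination, 12.2, 15.5 and 16.1 CPM with tazemetostat, 8.84, 9.45 and 9.19 CPM with ipatasertib, and 11.3, 10.2 and 9.71 CPM with DMSO. Both groups with tazemetostat were above both groups without it, and the combination libraries lay within the range of the tazemetostat libraries. NLRC5 rose 1.41-fold with tazemetostat (log2 0.49, SE 0.10, edgeR adjusted p = 0.000476), and was 1.33-fold above DMSO with the combination (log2 0.41, SE 0.11, edgeR adjusted p = 0.00228). The ipatasertib libraries were all below the DMSO libraries, at a log2 difference of -0.19 that did not pass the test (95% interval -0.41 to 0.04, edgeR adjusted p = 0.166). Between the combination and tazemetostat the difference was -0.08 (95% interval -0.30 to 0.14, edgeR adjusted p = 0.556).

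**Figure D3:**
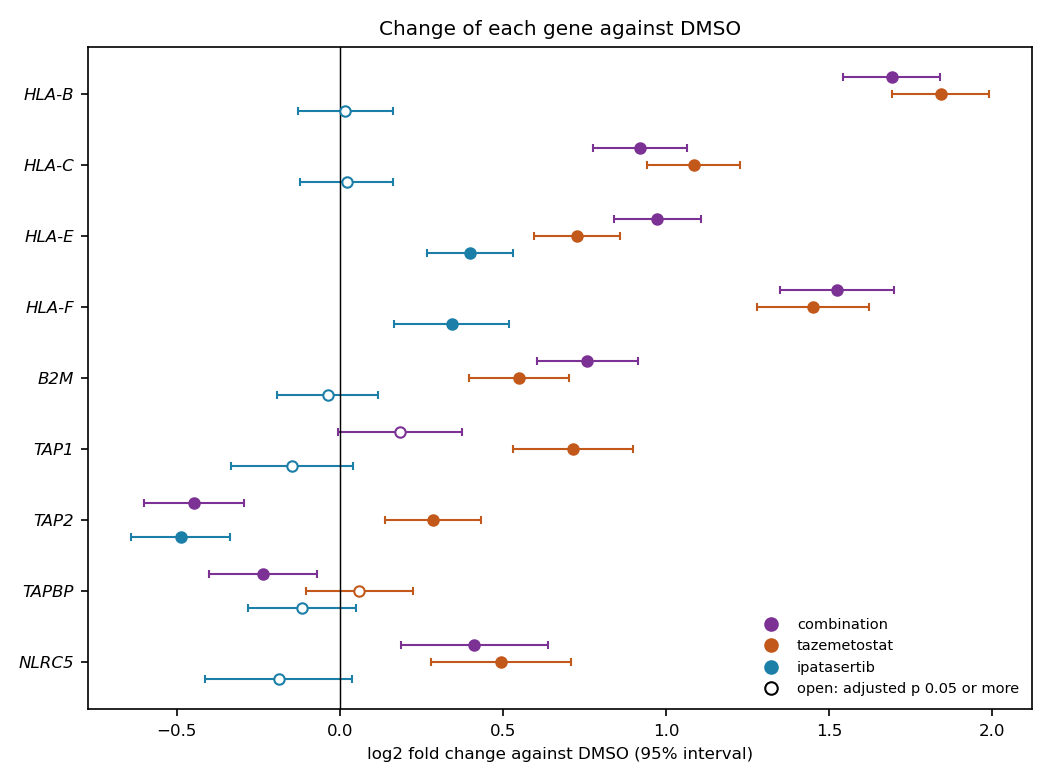
Log2 fold change of each class I gene against DMSO, with 95% intervals, for the combination, tazemetostat and ipatasertib. Filled points passed an adjusted p of 0.05. With tazemetostat the change ran from 0.06 for TAPBP to 1.84 for HLA-B, and TAP2 was higher with tazemetostat and lower in both groups with ipatasertib.

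The combination was also compared with each drug alone. Against ipatasertib, from which it differs by tazemetostat from day -5, it had 7 of the 9 genes higher, where 24.2% of all genes were called higher and 20.7% lower. TAP2 and TAPBP were the 2 that did not pass. The heavy chains ranged from a log2 change of 0.57 for HLA-E to 1.68 for HLA-B. Against tazemetostat, from which it differs by ipatasertib from day 0, it had HLA-E and B2M higher and TAP1, TAP2 and TAPBP lower. Of all tested genes 23.2% were called higher and 23.1% lower there, so counts of 2 and 3 of 9 are close to the background. Without the A libraries of every group, an alternative chosen after the data were seen, HLA-B (log2 -0.22, edgeR adjusted p = 0.000309) and HLA-C (log2 -0.27, edgeR adjusted p = 1.88e-05) were lower too, which makes 5 of 9 where 27.6% of all genes were called lower.

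The interaction asked whether the effect of both drugs departed from the sum of their single effects on the log2 scale. It was called for 0 of 9 genes by edgeR, where 5.96% of all tested genes were called higher and 6.01% lower. In edgeR 4 of the 9 had an unadjusted p under 0.05, and DESeq2 called 1 of 9, TAP1. The shares of all genes at the unadjusted threshold and by DESeq2 are not given here, so neither count is read against a background. In edgeR TAP1 came closest, at -0.38 (95% interval -0.65 to -0.12, adjusted p = 0.0534), and TAP2 (-0.24), HLA-F (-0.27) and B2M (0.25) had intervals that left out 0. The TAP1 value passed the threshold without ipatasertib library B, tazemetostat library A, combination library A or combination library C, with adjusted p-values of 0.0375, 0.0134, 0.0289 and 0.0384. HLA-C (-0.25) and HLA-F (-0.36) passed it without combination library A, and B2M (0.35) and TAP2 (-0.29) without tazemetostat library A. In those fits calls over all genes also rose, to 3231 without combination library A and 3681 without tazemetostat library A, against 869 higher and 875 lower with all libraries.

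Without the A libraries of every group, the interaction was called lower for 7 of the 9 genes and higher for B2M, and NLRC5 did not pass. For TAP2 and TAPBP a lower interaction was not a smaller rise, because both were below DMSO with the combination. In that fit TAP2 had log2 changes of -0.46 with the combination, 0.36 with tazemetostat and -0.46 with ipatasertib, and TAPBP -0.33, 0.14 and -0.12. The background rose as well in that fit, with 37.3% of all tested genes called, 17.8% higher and 19.5% lower. B2M was at 0.35 (SE 0.066, edgeR adjusted p = 9.9e-05), and the 7 lower genes ran from -0.24 for HLA-E to -0.52 for TAP1. The interaction calls among the 9 genes thus differed between the fits with and without the A libraries. TAP1 was also called in some fits that kept all libraries, with library totals in place of TMM factors (edgeR adjusted p = 0.0308) and by DESeq2 (adjusted p = 0.0331). The 8 calls with tazemetostat were made both with and without the A libraries.

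**Figure D4:**
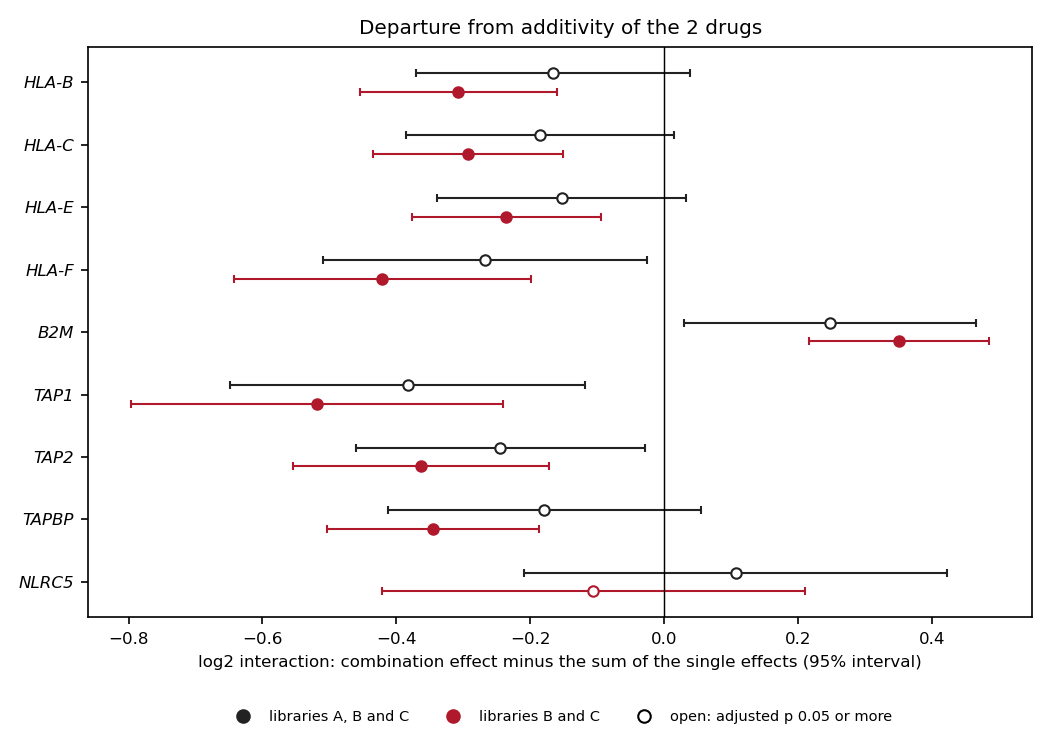
Interaction of the 2 drugs on the log2 scale for each class I gene, the combination's effect minus the sum of the single effects, with 95% intervals. Black points use libraries A, B and C, and red points B and C. All black points are open (adjusted p of 0.05 or more), and 8 of the 9 red points are filled.

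To compare levels between genes, CPM was divided by the length of 1 GENCODE v29 transcript per gene, a model that may differ from the cell line's transcripts. B2M led in every group, with 704 ± 36.4 CPM per kilobase with the combination, 609 ± 64.8 with tazemetostat, 405 ± 27.8 with ipatasertib and 416 ± 15.8 with DMSO (SD, n = 3 each). HLA-C was next in every group. HLA-B was 3rd with the combination (331 ± 25.1 CPM per kilobase) and with tazemetostat (368 ± 8.38), and 5th with ipatasertib (104 ± 8.79) and with DMSO (103 ± 1.15). With DMSO it lay below TAPBP (157 ± 6.77 CPM per kilobase) and HLA-E (114 ± 2.30), and no library of one overlapped a library of the next in that order. With ipatasertib HLA-E (145 to 158 CPM per kilobase) and TAPBP (138 to 153) overlapped, as did HLA-F (13.3 to 15.2) and TAP1 (12.1 to 14.4). HLA-F was above TAP1 in every library with the combination and with tazemetostat, and below it with DMSO. NLRC5 was lowest in every group, at 2.03 ± 0.0359 CPM per kilobase with the combination, 2.14 ± 0.307 with tazemetostat, 1.34 ± 0.0445 with ipatasertib and 1.53 ± 0.121 with DMSO.

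Among 11 other genes that make or load class I peptides, 3 were higher and 2 lower with tazemetostat, 1 higher and 5 lower with ipatasertib, and 2 higher and 5 lower with the combination, all against DMSO. Of all tested genes 25.9% were called higher and 21.3% lower with tazemetostat, 24.0% and 23.1% with ipatasertib, and 34.4% and 30.0% with the combination, so the tazemetostat counts of 3 and 2 of 11 were near the background. Their median log2 change was 0.10 with tazemetostat, -0.29 with ipatasertib and -0.15 with the combination, where the medians of all tested genes were 0.01, 0.0039 and 0.03. PSMB9, an immunoproteasome subunit that neighbours TAP1 in RefSeq, had 24.8, 23.6 and 22.6 CPM with the combination, 29.6, 29.3 and 31.2 CPM with tazemetostat, 13.98, 16.5 and 15.4 CPM with ipatasertib, and 18.6, 19.3 and 17.3 CPM with DMSO. Its 4 groups did not overlap. It rose with tazemetostat (log2 0.71, SE 0.082, edgeR adjusted p = 3.09e-07), fell with ipatasertib (log2 -0.27, SE 0.086, edgeR adjusted p = 0.0147), and was above DMSO with the combination (log2 0.37, SE 0.086, edgeR adjusted p = 0.000749). PSME2, a subunit of the proteasome activator PA28, fell in all 3 comparisons, with a log2 change of -1.08 with the combination, -0.32 with tazemetostat and -0.65 with ipatasertib (edgeR adjusted p of at most 0.000863). ERAP1, which trims peptides in the endoplasmic reticulum, rose by 0.59 with the combination, 0.33 with tazemetostat and 0.43 with ipatasertib (edgeR adjusted p of at most 0.000678). The peptide-loading chaperones CALR and PDIA3 fell with the combination (log2 -0.60 and -0.57) and with ipatasertib (-0.61 and -0.45), with edgeR adjusted p of at most 2.14e-06, and neither passed the test with tazemetostat.

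Of 21 regulators, 20 were tested. With tazemetostat 3 were higher and 3 lower, with ipatasertib 7 higher and 3 lower, and with the combination 9 higher and 4 lower, against DMSO. Of all tested genes 25.9% were called higher and 21.3% lower with tazemetostat, 24.0% and 23.1% with ipatasertib, and 34.4% and 30.0% with the combination. Beside these shares, the tazemetostat counts and the lower counts with the other 2 treatments were not above the background. The higher counts of 7 and 9 of 20 were near it. The medians were 0.05 with tazemetostat, 0.04 with ipatasertib and 0.06 with the combination, beside 0.01, 0.0039 and 0.03 over all genes. IFNGR1, the ligand-binding chain of the interferon-gamma receptor, fell with tazemetostat (log2 -0.80, edgeR adjusted p = 5.37e-08) and the combination (-0.70, edgeR adjusted p = 1.76e-07). IFNGR2, its partner chain, rose with the combination (0.81, edgeR adjusted p = 2.17e-09) and ipatasertib (0.69, edgeR adjusted p = 7.41e-08). JAK1, the kinase bound to interferon receptors, rose in all 3, by 0.85 with the combination, 0.36 with tazemetostat and 0.52 with ipatasertib. IRF9 and STAT2 are partners in the interferon-activated ISGF3 complex. IRF9 rose with the combination (0.69) and tazemetostat (0.55), STAT2 with the combination (0.51) and ipatasertib (0.62), and IRF2 with the combination (0.37) and ipatasertib (0.38). RFX5, the DNA-binding subunit of the complex that recruits NLRC5, fell with the combination (-0.57, edgeR adjusted p = 2.46e-06) and did not pass the test with either drug alone. NFYB, a subunit of NF-Y, fell with tazemetostat (-0.53, edgeR adjusted p = 2.13e-05) but not with the combination (0.03, edgeR adjusted p = 0.769), and its interaction was called (0.52, SE 0.12, edgeR adjusted p = 0.00967).

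Of 14 class I-like genes, 12 were tested. With tazemetostat 8 were higher than DMSO and 0 lower, with ipatasertib 3 higher and 1 lower, and with the combination 5 higher and 0 lower. Of all tested genes 25.9% were called higher and 21.3% lower with tazemetostat, 24.0% and 23.1% with ipatasertib, and 34.4% and 30.0% with the combination. The higher counts of 3 and 5 of 12 were thus near the background. The medians were 0.57 with tazemetostat, 0.24 with ipatasertib and 0.49 with the combination, beside 0.01, 0.0039 and 0.03 over all genes. ULBP1, a ligand of the NKG2D receptor on natural killer cells, had 17.4, 19.6 and 19.4 CPM with the combination, 10.5, 10.7 and 11.5 CPM with tazemetostat, 8.23, 8.91 and 8.71 CPM with ipatasertib, and 5.92, 5.45 and 6.19 CPM with DMSO, with no overlap between groups. Its log2 change was 1.68 with the combination, 0.90 with tazemetostat and 0.55 with ipatasertib (edgeR adjusted p of at most 0.000175). ULBP2, of the same family, rose with tazemetostat (0.67) and fell with ipatasertib (-0.64), and its difference of -0.20 with the combination did not pass (edgeR adjusted p = 0.263). MR1, which presents vitamin B metabolites, rose by 0.71 with the combination, 0.49 with tazemetostat and 0.51 with ipatasertib. HLA-H, a class I pseudogene whose reads can be shared with its copies, was higher with the combination (1.19) and tazemetostat (1.34). CIITA, CD1D and FCGRT had 33, 3 and 14 counts, in that order, over the 12 libraries and were not tested.

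**Figure D5:**
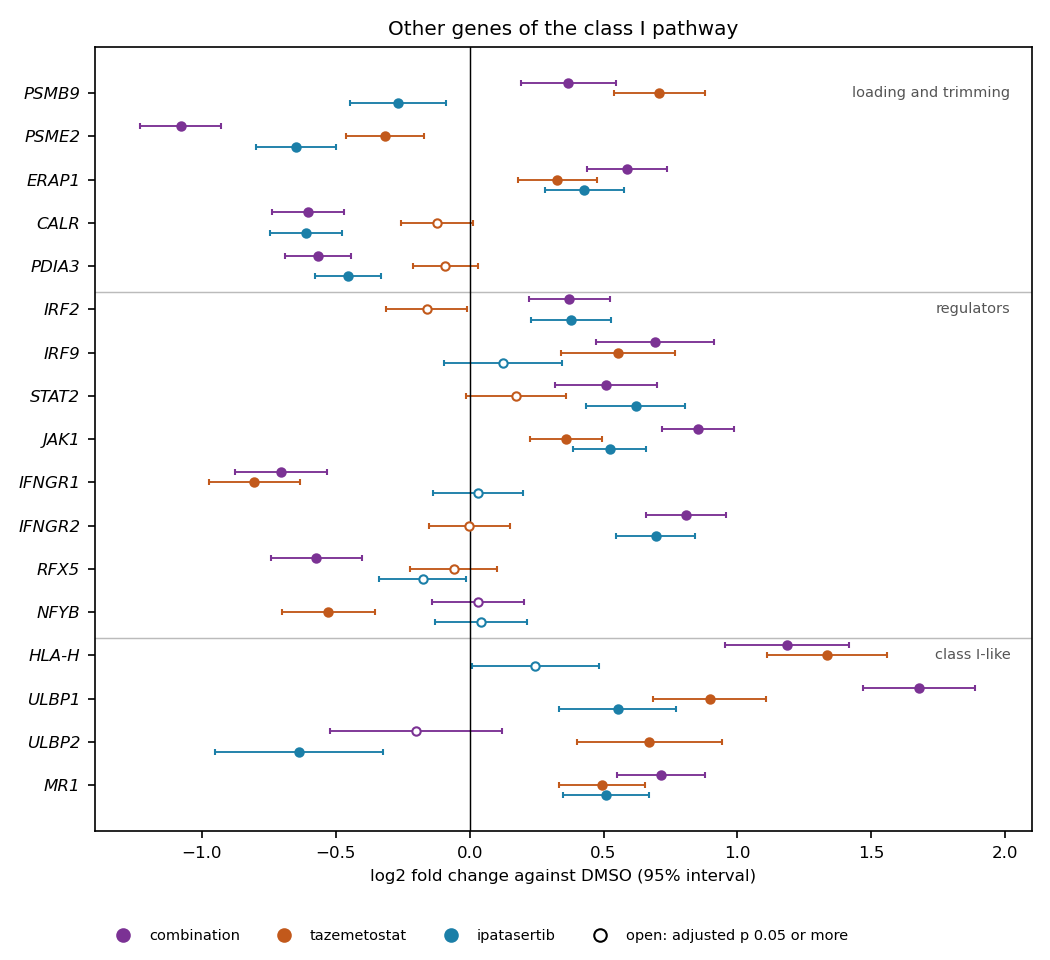
Log2 fold change against DMSO of 17 other genes of the class I pathway, with 95% intervals, in 3 lists (loading and trimming, regulators, class I-like). Filled points passed an adjusted p of 0.05. PSME2, CALR and PDIA3 lie below 0 with the combination and ipatasertib, and ULBP1 lies above 0 with all 3 treatments.

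The genes whose pattern lay nearest to that of 4 of the 9 were found by the root mean square difference over the 3 log2 changes against DMSO, among 11406 genes. For HLA-B they were FAR2 (0.069), TBC1D8B, PPM1H, SEL1L3 and ABCC4 (0.163). For B2M they were ARHGAP28 (0.044), DAPL1, C11orf74, BAMBI and KMO (0.054). For TAP1 they were EPHA10 (0.026), IGFBPL1, SMPD1, PPP1R1A and PALLD (0.075), and for NLRC5 they included PAX6 (0.026), PAPSS2, C3orf58 and INPP1 (0.050). FAR2 had log2 changes of 1.73 with the combination, 1.74 with tazemetostat and 0.06 with ipatasertib, and HLA-B had 1.69 with the combination, 1.84 with tazemetostat and 0.02 with ipatasertib. These distances rest on 3 comparisons that share their DMSO libraries.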

How the data were processed

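RNA came from the RNeasy Plus kit and sequencing libraries from Kapa Hyper Prep, per the labels' protocols, which name poly(A) RNA as the molecule. The authors deposited unnormalized counts for every gene symbol, 1 file for each of the 12 libraries. STAR, SAMtools, HTSeq, DESeq2 and the build hg19 are listed, without versions, in the submitters' processing notes. Neither the annotation nor the strand setting was given in them. A table of scaled values for the whole series was not used. The 5 closing lines of each file, which name no gene, were set aside before library sizes and tests, and genes held 61.9% ± 1.38 of the total with the combination, 66.2% ± 0.980 with tazemetostat, 63.2% ± 0.637 with ipatasertib and 66.3% ± 1.66 with DMSO (SD, n = 3 each).

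Tests used edgeR 4.0.16 in R 4.3.3. Genes were kept by filterByExpr with a minimum count of 10 and scaled by TMM, and all 12 libraries entered a single model of group means, which left 8 residual degrees of freedom. Quasi-likelihood F-tests (robust) were adjusted by Benjamini-Hochberg over 14571 genes, with a threshold of 0.05. An SE is the size of the log2 change divided by the square root of F, and a 95% interval uses the degrees of freedom of the test. At these depths 3 counts are 0.106 to 0.228 CPM; such floors cover counting error only, because reads lack molecular identifiers. Promoter windows came from the RefSeq table of GRCh38.p14 and were searched in Python 3.11.15, and transcripts from GENCODE v29; no coordinate was taken from the hg19 files.

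The 9 genes and all lists were chosen with earlier results of these data known. Named genes are the 9, every gene of the 3 pathway lists called in at least 1 comparison with a log2 change of at least 0.5 in size and at least 5 CPM in its highest group, and the 5 genes nearest to HLA-B, B2M, TAP1 and NLRC5 with at least 5 CPM. Some genes that meet these rules are not reported here. Each result was recomputed with RLE factors, with library totals, by DESeq2 1.42.0, unfiltered, with at least 50 counts in 3 libraries, on the compared groups only, with a replicate block by letter, and without each library in turn. A fit of libraries B and C of every group was chosen after the data had been seen.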

Additional observations from a re-analysis of the deposited data

How the results depend on the processing

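The rises of the 8 genes with tazemetostat and of 6 genes with the combination against DMSO kept their direction and stayed past the threshold in all 14 alternatives, HLA-B between 1.81 and 1.91 and NLRC5 between 0.40 and 0.67 on the log2 scale with tazemetostat. Against DMSO, the combination lowered 1 gene in place of 2 with library totals (TAPBP at -0.18, edgeR adjusted p = 0.061), and 1 to 2 with a library left out; TAP1 passed with library totals (adjusted p = 0.0266). The combination against ipatasertib lowered 0 to 1 gene with a library left out and 1 with libraries B and C. Against tazemetostat it lowered 5 genes with DESeq2, with no filter and with libraries B and C, and 3 to 5 with a library left out; it raised 1 to 2 with a library left out. HLA-C was called there in 8 of 14 alternatives. Of all genes, the combination lowered 3995 to 4374 against DMSO with a library left out, beside 4371 with all libraries. Against ipatasertib it lowered 2318 to 3416, beside 3012, and 3899 with libraries B and C. Against tazemetostat it lowered 2901 to 3540 and raised 2767 to 3563, beside 3373 and 3374, and lowered 4036 with libraries B and C. For the other fits of these comparisons no share of all genes is given here. Signs that turned were all of differences not called: with ipatasertib HLA-B (-0.0034 without ipatasertib library B, -0.057 without C, up to 0.063 without another), HLA-C (-0.0081 without DMSO library A, -0.038 without ipatasertib library C, up to 0.033 without another) and B2M (0.0046 with library totals); with tazemetostat TAPBP (-0.0098 without tazemetostat library C, up to 0.13 without another); with the combination against ipatasertib TAP2 (-0.0052 with libraries B and C); with the combination against tazemetostat HLA-F (-0.019 without combination library A, up to 0.13 without another, and -0.023 with libraries B and C); and in the interaction NLRC5 (-0.11 with libraries B and C). The interaction was called higher for 869 genes and lower for 875. It was called for 1012 (533 higher, 479 lower) with the replicate block, 5452 (2605 higher, 2847 lower) with libraries B and C, and 674 to 3681 (357 to 2017 higher, 262 to 1726 lower) with a library left out, with 1369 lower under library totals. Of the 9 genes it was called lower for 1 with library totals, DESeq2, no filter and the filter of 50 counts, 0 to 3 with a library left out and 7 with libraries B and C, and higher for 0 to 1 with a library left out and 1 with libraries B and C; TAP1 was called in 9 of 19 alternatives. With library totals 67.9% of genes called with tazemetostat were higher, in place of 54.9%, and 33.6% of those in the interaction, in place of 49.8%. Deviations from the group means correlated above 0.1 in at most 1 of 3 same-letter pairs of any comparison. The correlations ran from -0.30 (A libraries of the combination and tazemetostat) to 0.14 (A libraries of ipatasertib and DMSO). With 3 libraries per group this cannot settle whether the letters pair the libraries. The replicate block changed no call among the 9 genes. Apart from fewer libraries where some were left out, the cause of these changes was not tested.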
